A study of Mus musculus with 6 samples.

Results

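Chromatin at 7 genes that encode transcription factors of limb bud and mesenchyme was described in a pair of mouse Ewing sarcoma cell lines, ES48 and ES49. The genes are Tbx3, Tbx5, Tbx2, Tbx4, Pitx1, Prrx1 and Twist1. Their peaks were taken as all called ChIP-seq peaks within 50 kb of a fixed mm9 span of each gene. That rule gave 119 of the 76477 peaks of the series: 14 of 25970 H3K27ac peaks in ES48, 15 of 29652 H3K27ac peaks in ES49, 90 of 19560 H3K27me3 peaks in ES49 and no EWS-FLI1 peak of either line. The windows of Tbx2 and Tbx4 overlap, so the 7 windows form 6 separate stretches with a total length of 843 kb, 0.0328% of the genome span.

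Both lines are murine Ewing sarcoma cells on a Balb/c background, induced by the fusion protein EWS-FLI1, and were grown in serum-containing medium with no treatment. In ES48, EWS-FLI1 (through a FLAG antibody) and H3K27ac were precipitated. In ES49, EWS-FLI1, H3K27ac and H3K27me3 were precipitated, and an input sample was not used here. Each group is 1 library of 1 cell line, so no difference below has a replicate check and none was tested. H3K27me3 was mapped in ES49 alone, so nothing is known here of that mark in ES48.

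H3K27ac marks active promoters and enhancers, and H3K27me3 is laid down by Polycomb repressive complexes over silent developmental genes. In the limb bud, Tbx5 is the T-box factor that starts the forelimb, while Tbx4 and its activator Pitx1 serve the hindlimb. Tbx2 and Tbx3 are related T-box repressors expressed along the limb margins, and Tbx3 lies next to Tbx5 as Tbx2 lies next to Tbx4, the result of an old duplication. Prrx1 is a homeodomain factor of limb bud mesenchyme, and Twist1 is a basic helix-loop-helix factor of mesenchymal cells.

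The sequences before the start of Prrx1, Tbx4 and Twist1 are shown because only these 3 of the 7 genes were matched in the RefSeq promoter table. At each of them a peak covered, or came close to, the end of the mm9 span at which the gene begins. Peaks also covered an end of the span at Tbx2, Tbx3, Tbx5 and Pitx1. The sequences are the 250 bases before the RefSeq start, 5′ to 3′ on the gene's strand, on GRCm38.p6. Positions were not carried between that build and the mm9 of the peaks. Capitals mark CG dinucleotides, which cluster at many Polycomb targets.
Prrx1 (chr1:163313651-163313900, minus strand): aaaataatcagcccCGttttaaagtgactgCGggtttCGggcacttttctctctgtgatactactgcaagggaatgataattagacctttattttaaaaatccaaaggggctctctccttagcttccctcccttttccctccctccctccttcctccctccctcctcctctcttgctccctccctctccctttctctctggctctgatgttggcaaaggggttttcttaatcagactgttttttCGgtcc
Tbx4 (chr11:85896515-85896764, plus strand): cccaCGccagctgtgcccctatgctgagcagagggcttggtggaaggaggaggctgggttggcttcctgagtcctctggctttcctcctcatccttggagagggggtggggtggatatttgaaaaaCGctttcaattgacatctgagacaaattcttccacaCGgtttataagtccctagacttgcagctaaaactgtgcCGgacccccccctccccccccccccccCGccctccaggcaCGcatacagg
Twist1 (chr12:33957421-33957670, plus strand): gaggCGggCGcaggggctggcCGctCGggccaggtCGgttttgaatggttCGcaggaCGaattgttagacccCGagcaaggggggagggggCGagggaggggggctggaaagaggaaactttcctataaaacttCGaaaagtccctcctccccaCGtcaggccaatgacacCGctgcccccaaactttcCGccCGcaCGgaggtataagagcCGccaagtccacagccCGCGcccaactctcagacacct

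The Twist1 sequence held 18 CG dinucleotides, a number reached by 21.7% of the 32851 promoters in the RefSeq table, whose median was 6. Tbx4 held 6 and Prrx1 held 4. The GC content was 62.4% for Twist1, 58.4% for Tbx4 and 47.6% for Prrx1, against a median of 52.4% over all promoters. The Tbx4 start shown lies 10.4 kb inside its RefSeq gene, and the Prrx1 start lies 1495 bp inside its own. Their CG counts therefore do not describe the outer end of either gene. The letters GGAAGGAA, a short form of the GGAA repeats that EWS-FLI1 is known to bind, were searched on both strands as GGAAGGAA and TTCCTTCC. None of the 3 sequences held them, and 3.12% of all promoters did. The promoters of Tbx2, Tbx3, Tbx5 and Pitx1 were not matched in the table.

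The 7 loci fell into 3 kinds. Tbx3 and Tbx5 carried broad H3K27ac in both lines and no H3K27me3 peak. Tbx2, Tbx4, Pitx1 and Twist1 carried H3K27me3 in ES49 and at most 1 narrow H3K27ac peak in either line. Prrx1 carried H3K27ac peaks inside its span in ES48, none inside its span in ES49, and no H3K27me3.

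**Figure D1:**
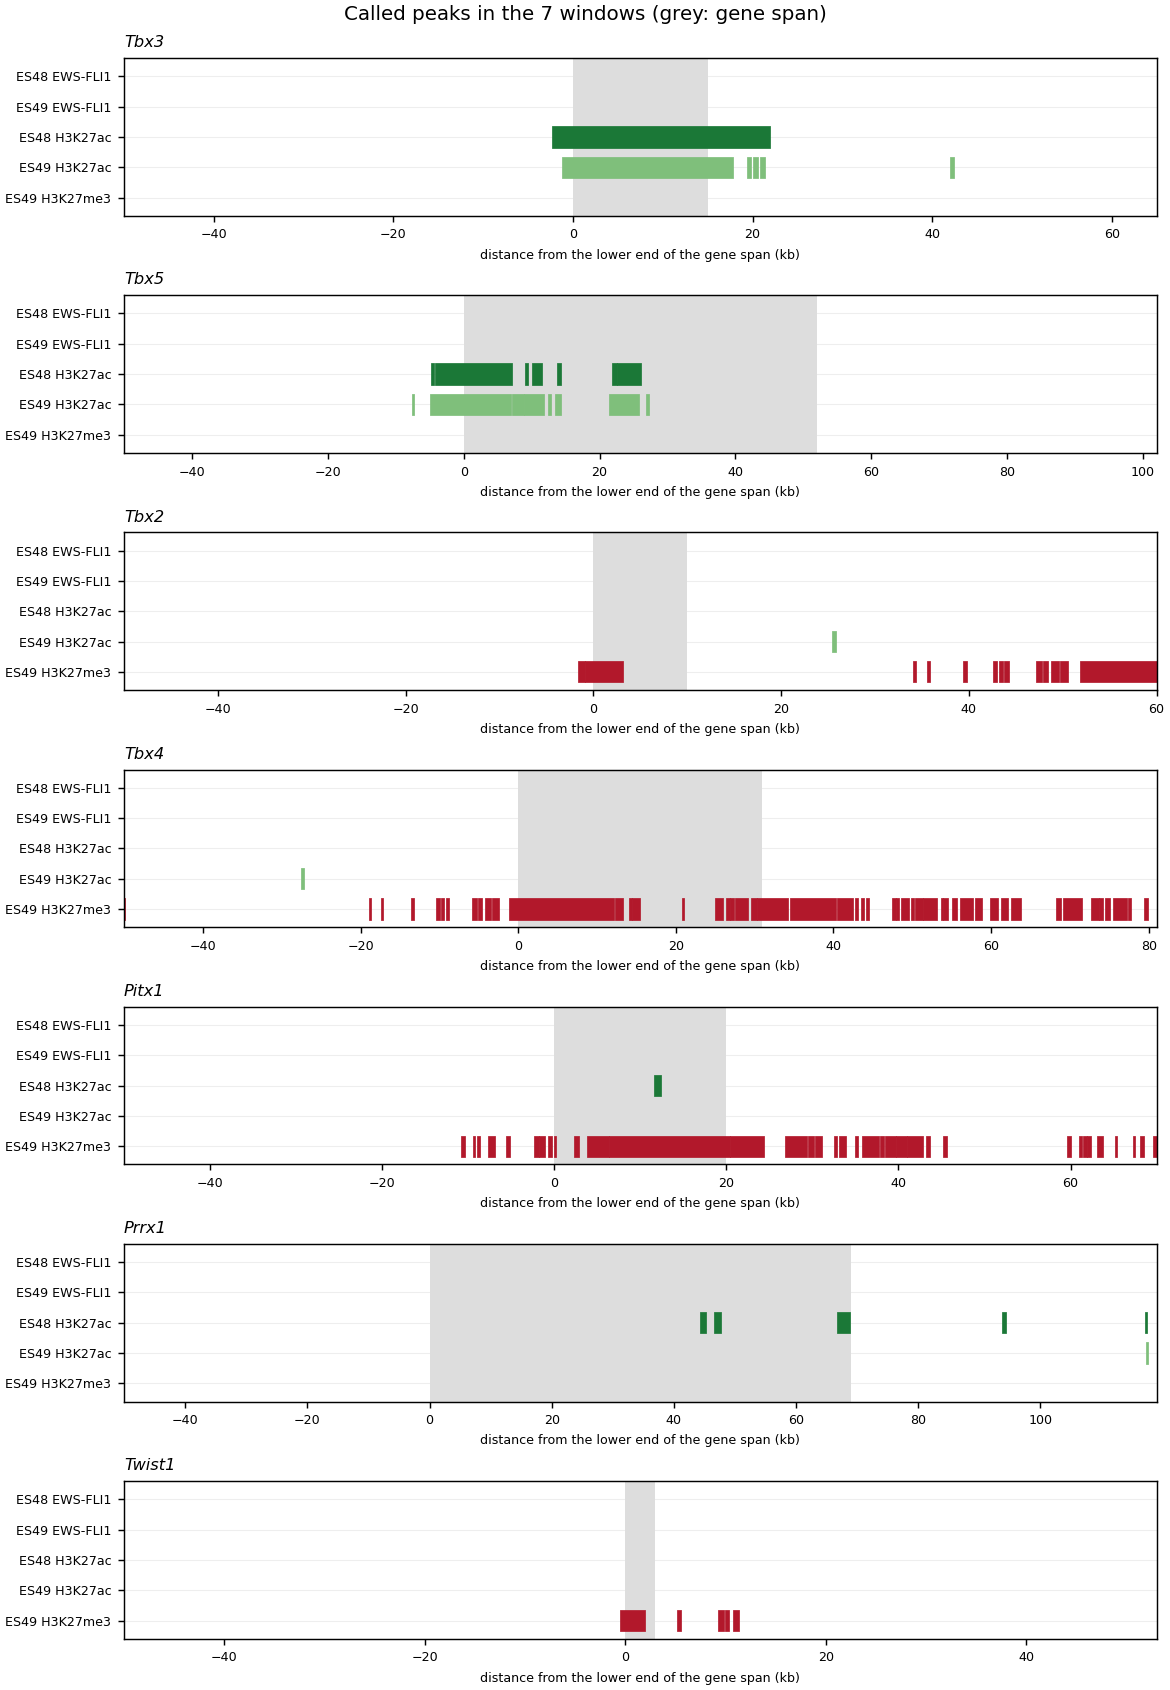
Called peaks in the window of each gene, 1 row per library, plotted by distance in kb from the lower-coordinate end of the gene's mm9 span (grey). Tbx3 is covered by H3K27ac of both lines and Tbx5 over the lower part of its span, while ES49 H3K27me3 lies over at least part of the Tbx2, Tbx4, Pitx1 and Twist1 spans, and both EWS-FLI1 rows are empty in all 7 windows.

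Tbx3 was covered from end to end by H3K27ac in both lines. In ES48 a single peak of 24.3 kb, at chromosome 5 120117620 to 120141924, covered 100% of the 15.0 kb span and had a score of 3100. It was the third widest of the 25970 ES48 H3K27ac peaks. In ES49 a peak of 19.0 kb, at chromosome 5 120118763 to 120137779, also covered 100% of the span with a score of 3100. It was the widest of all 29652 ES49 H3K27ac peaks. These ranks are of single peaks and depend on how each list split a stretch. With neighbouring H3K27ac peaks joined into domains at the wider distance used here, Tbx3 ranked lower. By covered length its domain was at rank 136 of 13750 in ES48 and 135 of 13484 in ES49. At the shorter joining distance it was at rank 62 of 16846 in ES48 and 54 of 17355 in ES49. The score of 3100 is a plateau at which many peaks gather. Within its own list, 19.6% of ES48 H3K27ac peaks and 6.01% of ES49 H3K27ac peaks scored at least 3100. Equal scores of 3100 therefore do not show equal signal.

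The Tbx3 peaks reached past the span on both sides. Below the span they began 2381 bp away in ES48 and 1238 bp away in ES49. Above it the ES48 peak ran on for 6924 bp and the ES49 peak for 2779 bp. ES49 had 3 further peaks of 430, 569 and 554 bp in the stretch that the one ES48 peak covered, with scores of 55.1, 82.7 and 84.3, so the lists split the same stretch differently. One more small ES49 peak, of 404 bp and 27044 bp above the span, had no counterpart in ES48. In all, H3K27ac covered 24.3 kb of the Tbx3 window in ES48 and 21.0 kb in ES49, and 83.2% of the stretch covered in either line was covered in both.

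Tbx5, the forelimb factor, was acetylated over the lower part of its span in both lines. A peak of 11.3 kb in ES48, at chromosome 5 120279810 to 120291084, began 4191 bp below the span and ended 7084 bp inside it. A peak of 11.9 kb in ES49, at 120279091 to 120291026, began 4910 bp below the span and ended 7026 bp inside it. Both peaks were at the plateau score of 3100, and they ranked 98 by width in ES48 and 11 in ES49. Their inner edges lay less than 100 bp apart. Joined at the wider distance, the Tbx5 H3K27ac domain ranked 249 of 13750 by covered length in ES48 and 103 of 13484 in ES49.

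A further acetylated place lay deeper inside the Tbx5 span. In ES48 it was a peak of 3542 bp with a score of 2484.9, at 120306556 to 120310097, which began 22555 bp above the lower end. A peak of 631 bp lay next to it. In ES49 it was a single peak of 4340 bp with a score of 3100, at 120305442 to 120309781. Between the places ES48 had peaks of 440, 1467 and 666 bp, and ES49 had peaks of 1702, 2993, 438 and 837 bp. The last peak ended 27220 bp above the lower end of the span, and neither line had one in the rest of the span or in the 50 kb above it. H3K27ac covered 18.4 kb of the Tbx5 window in ES48 and 23.0 kb in ES49, and 76.4% of the stretch covered in either line was covered in both. That was 97.5% of the ES48 length and 77.9% of the ES49 length.

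**Figure D2:**
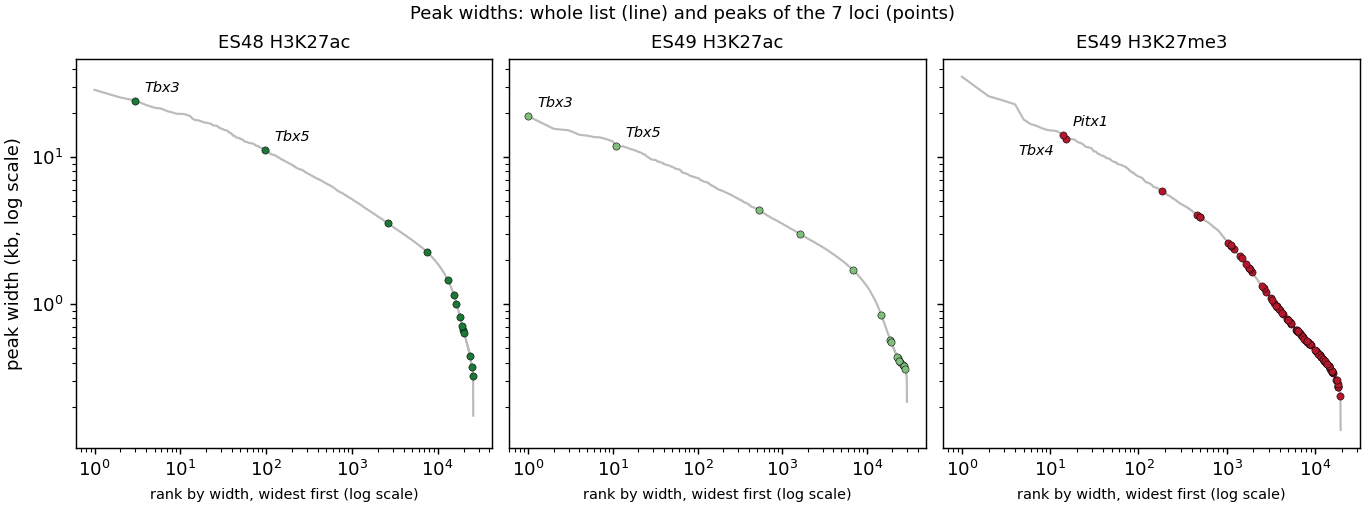
Width in kb of every peak of a list against its rank by width, both on log scales (grey line), with the peaks of the 7 loci as points and those at least 10 kb wide labelled. The Tbx3 peak ranks 3 in ES48 H3K27ac and 1 in ES49 H3K27ac, and the widest Pitx1 and Tbx4 peaks rank 14 and 15 in ES49 H3K27me3.

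Wide peaks were few in each list. Of the peaks at the 7 loci, 2 of 14 ES48 H3K27ac peaks, 2 of 15 ES49 H3K27ac peaks and 2 of 90 ES49 H3K27me3 peaks were at least 10 kb wide. Over the whole lists the shares were 0.520% for ES48 H3K27ac, 0.0843% for ES49 H3K27ac and 0.215% for ES49 H3K27me3. The width of 10 kb was chosen after the values were seen. The median width at the loci was lower than in the whole list for H3K27ac, at 913 against 1475 bp in ES48 and 554 against 838 bp in ES49. For H3K27me3 it was 599 bp at the loci against 500 bp in the whole list.

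Tbx2 and Tbx4 lie side by side on chromosome 11, and their windows held no ES48 H3K27ac peak. At Tbx2 an ES49 H3K27me3 peak of 4056 bp with a score of 3100, at 85645075 to 85649130, began 926 bp below the span and covered its first 3130 bp. A peak of 734 bp lay just below it. The remaining 6870 bp of the Tbx2 span had no peak of any list. Of the H3K27me3 list, 1.23% of the peaks had a score that high.

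Tbx4, the hindlimb T-box factor, had the most H3K27me3 of the 7 loci. Its window held 49 H3K27me3 peaks that covered 58.7 kb, 44.8% of the window and 64.4% of the span. The widest, of 13.4 kb with a score of 3100, lay at chromosome 11 85697806 to 85711182, from 1195 bp below the span to 12182 bp inside it. It ranked 15 among 19560 H3K27me3 peaks. The next widest was a peak of 5876 bp with a score of 2257.3, 3476 bp above the span. After it came the peak of 4056 bp over Tbx2, also in this window, with a score of 3100. A peak of 3895 bp with a score of 1067.7 lay over the upper end of the span. The others were mostly small, with 35 of the 49 under 1 kb wide and 20 scoring under 100. Small peaks were also the rule in the whole H3K27me3 list, where a peak of 972 bp was among the widest 18.7%. The median score was 132.4 in this window and 89.98 in the whole list.

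The Tbx4 mark ran on past the gene on its upper side. H3K27me3 covered 6.32 kb of the 50 kb below the span and 32.5 kb of the 50 kb above it. Neighbouring peaks stood close, with a median gap of 282 bp, and 35 of 48 gaps were under 1 kb. These gaps were not set beside those of the whole list. From 85680075 to 85846197, past the edge of the window, 85 peaks followed each other with no gap above 6009 bp. This run was 166 kb long with 84.7 kb covered, and it ranked 7 by covered length among the 4750 H3K27me3 domains joined at the wider distance used here. Joined at less than 5 kb, the same window held separate domains of 20.8 and 37.8 kb covered, at ranks 71 and 25 of 6430. The joining of H3K27me3 peaks was chosen after the data were seen.

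Between the Tbx2 and Tbx4 spans lay the single H3K27ac peak of these windows, in ES49, at chromosome 11 85671456 to 85671832. It was 377 bp wide with a score of 56.8, close to the lowest score of 50.01 in its list. The nearest H3K27me3 peak began 8.24 kb above it.

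Pitx1, the homeodomain activator of Tbx4 in the hindlimb, was covered by H3K27me3 over most of its span. The window held 35 ES49 H3K27me3 peaks that covered 43.0 kb, 35.8% of the window and 84.9% of the 20.0 kb span. A peak of 14.1 kb with a score of 3100, at chromosome 13 55926321 to 55940416, ran from 6320 bp above the lower end of the span to 416 bp past its upper end. It ranked 14 by width. Peaks of 2497 bp below it and 3908 bp above it, with scores of 497.0 and 1266.7, stood 17 and 14 bp from its edges. As at Tbx4, more of the mark lay above the span than below it, at 21.9 kb against 4.14 kb.

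Inside that Pitx1 peak lay an H3K27ac peak of ES48. It was 818 bp wide with a score of 125.3, at chromosome 13 55931615 to 55932432, and 74.4% of the ES48 H3K27ac peaks scored as high. ES49 had no H3K27ac peak within 90.4 kb of the Pitx1 span. This was the 1 of 14 ES48 H3K27ac peaks at the 7 loci that overlapped ES49 H3K27me3 (7.14%, 95% Clopper-Pearson interval 0.181 to 33.9), and in the whole ES48 list 1.74% did. The comparison is across lines, and with 1 peak it does not set the loci apart from the list. By 100 kb, Pitx1 was the 1 locus of 7 with both of these marks, and 6.25% of tiles of that size over the genome had both.

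Twist1 was marked by H3K27me3 on a smaller scale. A peak of 2518 bp with a score of 919.3, at chromosome 12 34641444 to 34643961, began 557 bp below the span and covered its first 1961 bp, 65.4% of the 3.00 kb span. The lower end is where the gene begins, since the RefSeq entry shown above is on the plus strand. The peak ranked 1111 by width. The other 4 peaks, of 376, 560, 393 and 657 bp, lay 2.14 to 7.72 kb above the span. Neither line had an H3K27ac peak in the window, and the nearest lay 527 kb below the span in both ES48 and ES49.

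Prrx1 had H3K27ac peaks inside its span in ES48 and none there in ES49. The 3 ES48 peaks covered 4.41 kb, 6.39% of the 69.0 kb span. The largest of the 5 ES48 peaks, of 2250 bp with a score of 959.4, lay at chromosome 1 165241617 to 165243866 and ended 134 bp short of the upper end of the span. The RefSeq entry is on the minus strand, so this is the end at which the gene begins. Further ES48 peaks of 1008 and 1149 bp, with scores of 245.1 and 203.2, lay inside the span, and peaks of 706 and 325 bp lay 24.7 and 48.1 kb above it. The single ES49 peak, of 364 bp with a score of 53.4, overlapped the farthest of these at 165292262 to 165292625. H3K27ac covered 5.44 kb of the Prrx1 window in ES48 and 0.364 kb in ES49. With only the higher-scoring 50% of each list it covered 2.25 kb in ES48 and 0 in ES49.

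The largest Prrx1 peak was not among the widest or highest-scoring of the ES48 list. Of all ES48 H3K27ac peaks, 29.2% were as wide as the largest Prrx1 peak and 40.9% scored as high. Of 25730 tiles of 100 kb that cover the genome span, 4.95% held H3K27ac of ES48 alone and 3.14% held H3K27ac of ES49 alone. In the 100 kb centred on each span, Tbx3 and Tbx5 held H3K27ac of both lines, as 30.2% of the tiles did. Prrx1 and Pitx1 held H3K27ac of ES48 alone, and Tbx2 and Tbx4 held the one weak peak of ES49 alone. The nearest ES49 H3K27me3 peak was 767 kb below the Prrx1 span, so neither ES49 mark was called over the gene. Without read counts, a place with no peak cannot be told from a place with signal below the caller's threshold.

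**Figure D3:**
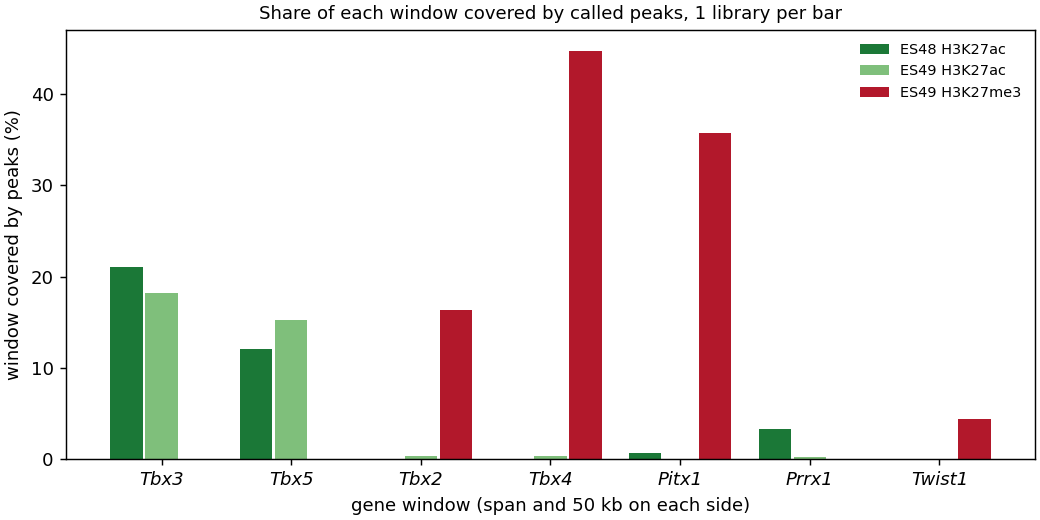
Percent of each window (the gene span and 50 kb on each side) covered by called peaks, 1 bar per library, with ES48 H3K27ac left of ES49 H3K27ac. Tbx3 and Tbx5 stand at 21.1% and 12.1% in ES48 H3K27ac and at 18.2% and 15.2% in ES49 H3K27ac, and Tbx4 and Pitx1 at 44.8% and 35.8% in ES49 H3K27me3.

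The lines were set side by side over all 7 loci. Of 14 ES48 H3K27ac peaks, 9 overlapped an ES49 peak (64.3%, 35.1 to 87.2), against 66.6% of the whole ES48 list. Of 15 ES49 peaks, 9 overlapped an ES48 peak (60.0%, 32.3 to 83.7), against 68.6% of the whole ES49 list. Both intervals hold the share of the whole list, cover counting error only and treat neighbouring peaks as independent, which they are not. At Tbx5 7 of 7 ES48 peaks overlapped an ES49 peak and 4 of 8 ES49 peaks overlapped an ES48 peak. At Prrx1 1 of 5 ES48 peaks and 1 of 1 ES49 peak did.

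By length the lines were more alike over the 7 loci together, though not at each gene. H3K27ac covered 49.0 kb of the 7 windows in ES48 and 44.8 kb in ES49, a ratio of 1.09, and 70.2% of the stretch covered in either line was covered in both. Over the whole lists the ratio was 1.35 and the share in both was 50.9%. Of the covered length at the 7 loci, Tbx3 and Tbx5 together held most: 24.3 and 18.4 kb in ES48, and 21.0 and 23.0 kb in ES49. At Prrx1 2.26% of the stretch covered in either line was covered in both, and at Pitx1, Tbx2 and Tbx4 the share was 0. The ES48 minus ES49 difference was 3.33 kb at Tbx3, -4.64 kb at Tbx5 and 5.07 kb at Prrx1, so Tbx5 went against the direction of the whole lists. Tbx2 and Tbx4 did too, at -0.377 kb each, through the same weak ES49 peak. ES48 H3K27ac peaks were wider in general, with a median of 1475 bp against 838 bp in ES49. The part of this difference in width in the differences at single loci was not tested. Scores were set only beside their own list. In ES48, 2 of 14 H3K27ac peaks at the 7 loci scored at least 3100, and 19.6% of the whole list did. In ES49, 3 of 15 did, and 6.01% of the whole list did.

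H3K27ac and H3K27me3 of ES49 did not meet at these genes. Of the 15 ES49 H3K27ac peaks 0 overlapped H3K27me3 (0 to 21.8% by the exact interval), and in the whole list 0.890% did, so a count of 0 is also what the list as a whole would give. The nearest H3K27me3 peak lay 523 kb above the Tbx3 span and 322 kb above the Tbx5 span. The Tbx2 and Tbx4 windows were the only ones that held both ES49 marks, through the weak peak between the genes, and 5.89% of the 100 kb tiles held both.

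Over the 7 windows together, each histone mark covered a larger share than over the genome span, with most of the length at a few loci. H3K27ac covered 5.81% of the 7 windows in ES48 and 5.31% in ES49, and 1.87% and 1.39% of the genome span. H3K27me3 covered 13.2% of the windows and 0.643% of the genome span, at 107 against 7.60 peaks per Mb. Window by window, the H3K27ac share was below that of the genome span at Tbx2, Tbx4, Pitx1 and Twist1 in ES48, at 0 to 0.682%, and at Tbx2, Tbx4, Pitx1, Prrx1 and Twist1 in ES49, at 0 to 0.343%. H3K27me3 was at 0 in the Tbx3, Tbx5 and Prrx1 windows. In the 100 kb centred on each span, 4 of 7 loci held ES48 H3K27ac, 4 of 7 held ES49 H3K27ac and 4 of 7 held ES49 H3K27me3, against 35.1%, 33.3% and 13.9% of the tiles. Tbx2 and Tbx4 enter the ES49 H3K27ac count through the same peak of 377 bp, with a score of 56.8. Without that peak only Tbx3 and Tbx5 held ES49 H3K27ac. The stretches around Tbx2 and Tbx4 overlap, so their H3K27me3 is not separate either. The tiles include DNA far from any gene, and the windows are centred on genes. The 7 loci were also chosen with earlier results of these data known, so these shares are description only.

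With the same limits, the covered length in the 100 kb centred on each span was then ranked among those tiles. The 24.3 kb of H3K27ac around Tbx3 in ES48 was reached by 0.719% of the tiles, and the 21.0 kb in ES49 by 0.649%. For Tbx5 the shares were 1.54% in ES48 and 0.482% in ES49. The 50.8 kb of H3K27me3 around Tbx4 was reached by 11 of 25730 tiles, and the 39.6 kb around Pitx1 by 31. For Twist1 3.91% of the tiles had as much H3K27me3. For Tbx2 1.18% did, but the covered length behind that share includes the lower part of the run of peaks that leads into Tbx4. Within 25 kb of the Tbx2 span H3K27me3 covered 5.06 kb, and the domain over the gene itself covered 4.79 kb, at rank 831 of 4750. Prrx1, with 4.41 kb of ES48 H3K27ac, was reached by 13.5%.

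No EWS-FLI1 peak of either line lay within 50 kb of any of the 7 spans. Such peaks are rare: 1.48% of the 100 kb tiles held one in ES48 and 0.964% in ES49, so 0 of 7 is close to the background and is no result about these genes. The nearest was an ES48 peak 130 kb above the Prrx1 span, at chromosome 1 165374122 to 165374304, with a score of 54.7 in a list whose lowest score was 50.08. In ES49 the nearest EWS-FLI1 peak to Prrx1 was 22138 kb away. Tbx3 and Tbx5 had EWS-FLI1 peaks at 505 and 541 kb in ES48 and at 852 and 651 kb in ES49. For Tbx2, Tbx4, Pitx1 and Twist1 the shortest gap in either line was 1926 kb, at Tbx2 in ES48.

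**Figure D4:**
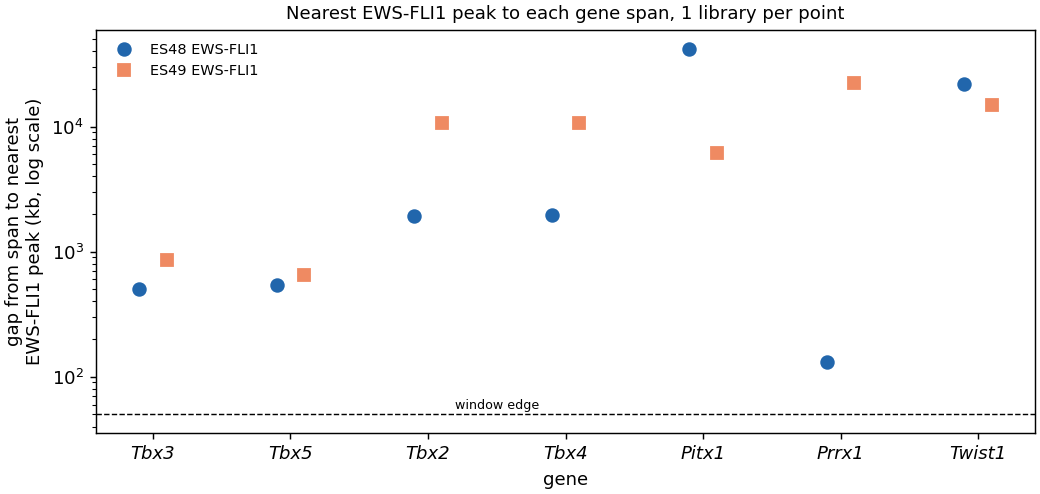
Gap in kb (log scale) from each gene span to the nearest EWS-FLI1 peak, with ES48 as circles left of ES49 as squares and the dashed line at the window edge of 50 kb. All 14 gaps are above the line, and the shortest is the ES48 gap of 130 kb at Prrx1.

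The choice of 50 kb cut through runs of peaks at some genes. At Pitx1 an H3K27me3 peak of 583 bp at 49.6 kb was just inside the limit and one of 692 bp at 50.8 kb just outside. At Tbx4 the H3K27me3 peak over Tbx2, 49.9 kb away, was just inside, and one of 734 bp at 53.9 kb just outside. The upper edge of the Tbx2 window fell inside the widest Tbx4 peak. At Prrx1 the narrow peaks at 48.1 kb in ES48 and 48.3 kb in ES49 were inside, and the next lay at 88.8 kb in ES48, with a score of 3100, and at 89.3 kb in ES49, with a score of 918.3. At Tbx3, Tbx5 and Twist1 no peak lay near the limit.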

How the data were processed

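Of the 6 samples, the 5 with a peak list were used, and the ES49 input was not analysed here. The submitters' processing notes name the build mm9, Bowtie 1.1.1 and SAMtools 1.2. Peak names in the deposited lists begin with MACS. How that caller was run (version, settings, control, filters) is not given in the sources used here. The deposited lists hold positions and a score for every peak, on a scale that is not stated. Scores were therefore compared only within a list. The lists hold no read counts, so depth is unknown.

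Peaks were assigned to a gene if they came within 50 kb of its span, and overlaps needed 1 bp. Covered length was cut at the window edges. H3K27ac domains joined peaks less than 12.5 kb apart. Shares carry exact 95% Clopper-Pearson intervals, which cover counting error only. Background was taken from whole lists and from all 25730 tiles of 100 kb between the first and last peak of each chromosome. With 1 library per group no test was made. The members and lists were chosen with earlier results of these data known. All 7 genes are named, each with the highest-scoring and widest peaks, the peaks at its span and the nearest EWS-FLI1 peaks. Other limb genes were not located, since no mm9 annotation was used. Overlap and coverage code was tested on simulated data. Python 3.11.15, numpy 2.4.6, scipy 1.17.1 and matplotlib 3.10.9 were used.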

Additional observations from a re-analysis of the deposited data

How the results depend on the processing

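Results were recomputed with windows of 25 or 100 kb, with the span alone, with peaks at most 1 kb apart counted as meeting, with a needed overlap of 50% of the narrower peak, with only the higher-scoring 50% of peaks, and with joining at 5 kb. None turned the sign of the ES48 minus ES49 H3K27ac difference, over the 7 loci or at any gene, though it became 0 at Tbx2, Tbx3, Tbx4 and Pitx1 under some of them. Over the 7 loci that difference was 4.20 kb. It was 6.44 kb with windows of 100 kb and 1.31 kb over the spans alone. Over the spans alone H3K27me3 covered 42.0 kb, against 111 kb in the windows, as follows from the smaller windows. With the upper 50% by score 0 of 5 ES48 H3K27ac peaks (0%) overlapped ES49 H3K27me3, since the Pitx1 peak scored below the median, and H3K27ac at Prrx1 in ES48 was 2.25 kb. The other 34 recomputed values over the 7 loci stayed within the binomial interval of the share or within 1.5 times the length or count. Of recomputed values at single genes 31 moved by more and 81 did not. Those that did not move include values of 0 that stayed 0. With smaller windows or fewer peaks a 0 cannot change, and this holds for some of the values over the 7 loci too. The counts are therefore no measure of stability. No paired analysis was possible because each group is 1 library with no replicate number in the labels. Depth is unknown, so a missing peak may be signal below the caller's threshold.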

Other observations

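H3K27ac between Tbx3 and Tbx5 lay within 50 kb of the genes in both lines. The spans are 149 kb apart, and H3K27ac covered 11.5 kb of that stretch in ES48 and 10.0 kb in ES49, counting the parts of the gene peaks that reach into it. In the 50 to 100 kb below and above the Tbx3 span no list had a further peak, and around Tbx5 ES49 H3K27ac had 2 peaks above the gene and ES48 had none. The next protein-coding genes in RefSeq order are Med13l below Tbx3 and Rbm19 above Tbx5.

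Beyond the Prrx1 window the lines differed in the same direction as inside it. In the 50 to 100 kb on each side of the span, ES48 H3K27ac had 2 peaks below and 3 above with 1.53 and 3.11 kb covered, and ES49 had 0 below and 1 above with 1.26 kb covered. Polycomb marking went on above Tbx4 and Pitx1 at that distance, with 29 H3K27me3 peaks over 22.4 kb above Tbx4 and 15 over 11.6 kb above Pitx1. Below the genes there was 1 such peak at Tbx4, besides the one over Tbx2, and 0 at Pitx1. The nearest protein-coding gene above in RefSeq order is Brip1 for Tbx4 and Macroh2a1 for Pitx1. Around Twist1, between Ferd3l and Hdac9, no list had a peak at that distance.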
